A study of Homo sapiens with 8 samples.

Results

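This account follows genes of the amino acid stress response and the cytosolic aminoacyl-tRNA synthetases in CCRF-CEM-C7-14, a glucocorticoid-sensitive clone of a human T-cell leukaemia line. The 37 genes were chosen by name, and 34 of them had at least 1 probe set carrying that symbol alone, out of 19775 genes measured in this way. MARS1 and QARS1 were represented only by probe sets that carry several symbols, and no probe set of GPT2 was listed in the annotation used here, so these 3 genes have no value. Total RNA was hybridised to 8 arrays. Untreated cells at 0 h gave 3 arrays, cells after 2 h in 1 µM dexamethasone, a synthetic glucocorticoid, gave 3, and cells after 10 h gave 2. All groups share a growth medium whose serum had been stripped of steroids with charcoal. The treated times have no vehicle arrays of their own here, and therefore hormone and time in this medium cannot be told apart. The cells are 1 cultured line. The sample titles call the arrays biological replicates, without saying how separate the cultures were. The p-values cover spread between these samples only, and how much of it lies between independent cultures is not stated. The number of arrays limits the precision of every value.

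When a cell runs short of an amino acid, uncharged tRNA activates a kinase that phosphorylates the translation factor eIF2. Most protein synthesis then slows while translation of the transcription factor ATF4 increases. ATF4, often paired with a C/EBP-family partner, binds composite C/EBP-ATF elements and raises genes for amino acid synthesis, amino acid uptake and tRNA charging. The synthetases are the enzymes that load each amino acid onto its tRNA, and many of the cytosolic ones are known ATF4 targets. Arrays measure RNA only, so the translation step at ATF4 is outside these data.

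The defining T-lineage genes were present, with CD3D at a mean of 13.0 and CD3E at 9.77 over the 8 arrays (log2 expression, the unit of all levels below), and 10 of 11 T-lineage markers lay above 4.73, the highest value of 27 Bacillus negative control probe sets. CD2 did not, at 4.72. Of 13 markers of B, myeloid, erythroid, epithelial and stromal cells, 8 lay above it, led by VIM at 12.4, CD79A at 8.78 and EPCAM at 8.56. The mean level of the 13 was 5.93 to 5.96 at 10 h and 5.76 to 6.13 at 2 h, against 5.89 to 5.99 at 0 h, and its part in the results below was not tested. At 10 h against 0 h 0 of the 11 T-lineage and 0 of the 13 other markers were called, the largest value being 0.69 for CD79A (log2 fold change; limma, adjusted p = 0.518). TSC22D3, a classical glucocorticoid target, rose with a log2 fold change of 4.30 ± 0.22 (SE) at 10 h against 0 h (limma, adjusted p = 7.22e-09). 3 arrays stood apart from the other 5 on the first principal component (35.9% of the variance): 0 h replicate 2, 2 h replicate 3 and 10 h replicate 1. These 3 had the lowest array medians, 4.68 to 4.77, against 4.91 to 5.01 for the others, and results are given with and without them where they matter.

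None of the 34 genes changed past the threshold at either time. In limma's moderated test, adjusted over all genes with Benjamini-Hochberg at 0.05, 0 of 34 were called at 10 h against 0 h, where 0.354% of all genes were. At 2 h against 0 h 0 of 34 were called, where 0.0202% of all genes were, and at 10 h against 2 h 0 of 34, where 0.167% of all genes were. At an unadjusted p below 0.05, where 3.44% of all genes lay in either direction, 2 of the 34 had lower values at 10 h than at 0 h, MTHFD2 and FARSA, where 1.29% of all genes had. No gene of the group had higher values at 10 h by that measure, where 2.15% of all genes did, and none passed it in either direction at 2 h, where 0.946% did. The 3 comparisons share arrays and are not independent of each other. In total RNA from whole cultures, fewer cells of a kind and less RNA per cell cannot be told apart.

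**Figure D1:**
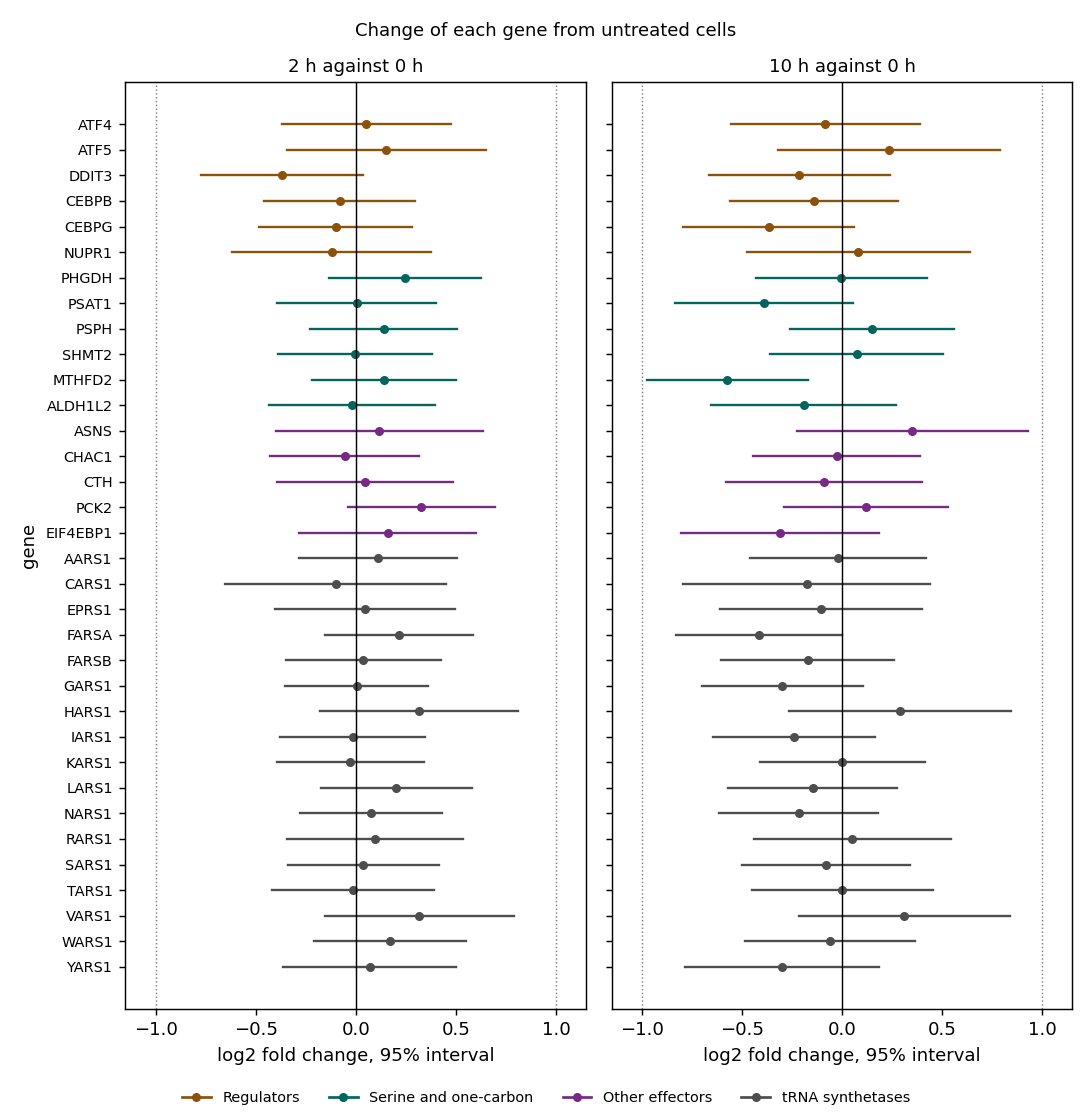
Log2 fold change of each of the 34 genes at 2 h against 0 h (left) and at 10 h against 0 h (right), with points for the limma estimates and bars for their 95% intervals, coloured by role. Each gene is shown by its brightest probe set. Dotted lines mark a log2 fold change of 1 in either direction, and every bar lies between them.

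The intervals bound how large a change in signal of the brightest probe set per gene could have gone unseen. They do not cover the other probe sets, some of which were less precise. A dimmer FARSB probe set, above the negative controls, had −0.53 ± 0.32 (SE) at 10 h against 0 h. For ALDH1L2 and CTH, which lay below the highest negative control, they bound no change in RNA. At 10 h against 0 h the 95% intervals, unadjusted, of all 34 genes lay within a log2 fold change of 1 in either direction, from −0.98 for MTHFD2 to 0.93 for ASNS. The same held for all 34 at 2 h, from −0.77 for DDIT3 to 0.81 for HARS1. It held for 32 of 34 at 10 h against 2 h, and the intervals of MTHFD2 and FARSA reached −1.12 and −1.05. At 10 h, 24 of 34 estimates were smaller than 0.25 in size and 1, that of MTHFD2, was larger than 0.5.

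As a group the estimates were spread on both sides of zero. In all, 24 of 34 were negative at 10 h against 0 h, or 70.6%, where 55.4% of all genes were, and the median was −0.09, against −0.02 for all genes. That count rested on 1 array: without 10 h replicate 1, 13 of 34 were negative and the median was 0.03. Without the 3 arrays with the lowest medians 20 of 34 were negative and the median was −0.05. With all arrays, 22 of the 32 genes above the highest negative control were negative at 10 h against 0 h. At 2 h against 0 h 11 of 34 were negative, where 44.3% of all genes were, with a median of 0.05 against 0.02 for all genes. Without 0 h replicate 2 the count at 2 h became 20 and the median −0.04, and without the 3 arrays with the lowest medians they were 18 and −0.01. At 10 h against 2 h 25 of 34 were negative, where 57.5% of all genes were, with a median of −0.14 against −0.03 for all genes. Without 10 h replicate 1, 17 of 34 were negative and this median was 0.01, and without the 3 arrays with the lowest medians 19 were negative and it was −0.02.

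Single arrays stood out in the group. For 16 of the 34 genes, or 47.1%, 10 h replicate 1 held the lowest of the 8 values, where 20% of all genes were lowest there. For 12 of the 34, or 35.3%, 2 h replicate 3 held the highest, where 5.51% of all genes were highest there. Relative to each gene's mean over 8 arrays, the median of the 34 genes was −0.24 in 10 h replicate 1, where that of all genes was −0.09, and 0.04 in 10 h replicate 2, where that of all genes was 0.05. In 2 h replicate 3 the median of the group was 0.09 while that of all genes was −0.13. Both arrays with these extremes belong to the 3 with the lowest medians.

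**Figure D2:**
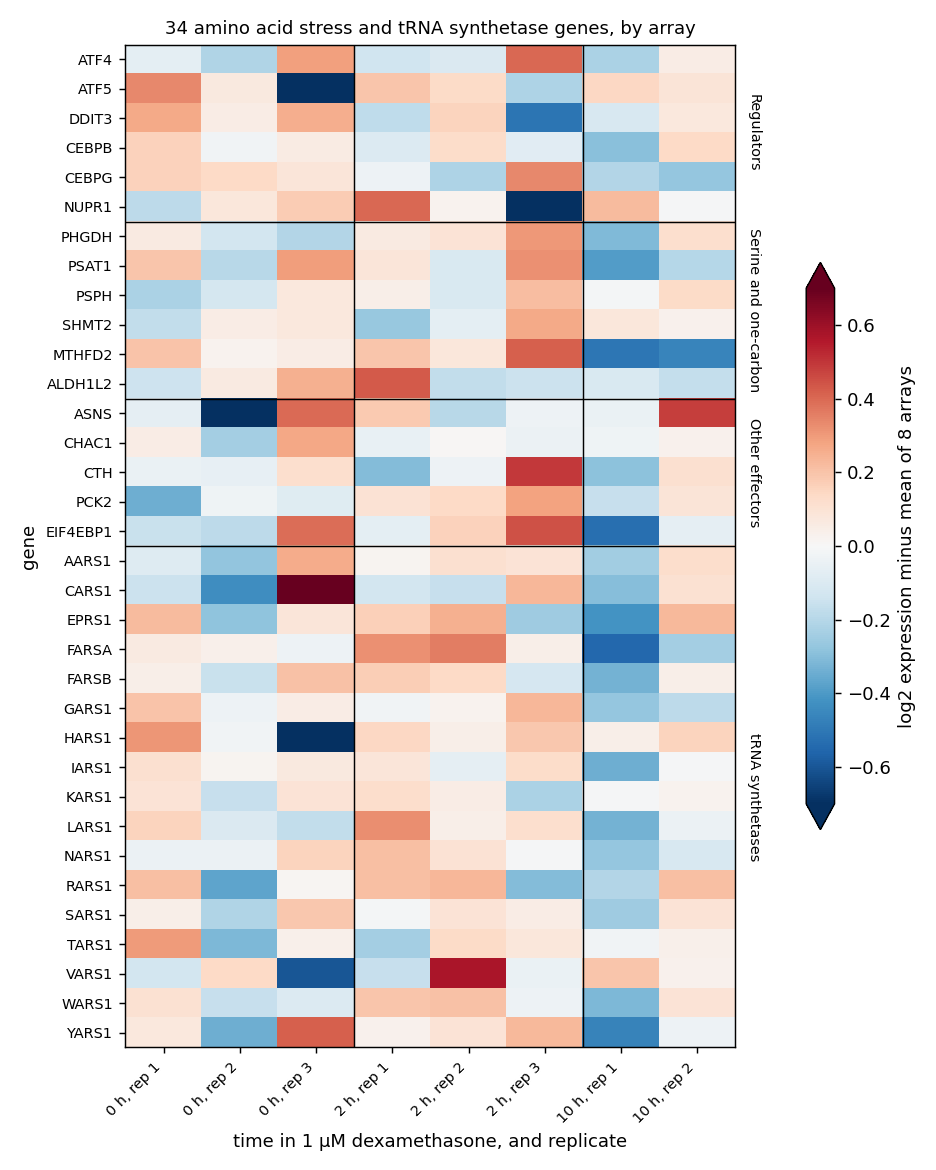
Log2 expression of the 34 genes in each of the 8 arrays, minus the gene's mean over the 8, with genes in rows by role and arrays in columns by time and replicate; the colour scale is cut at 0.7 in either direction. The column of 10 h replicate 1 is mostly blue, with 16 genes at their lowest there, and that of 10 h replicate 2 is not.

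The known ATF4 binding element gives a sequence view of the group. RefSeq promoter windows of assembly GRCh38.p14 were available for 28 of the 37 genes (40 windows, since some genes have several starts), and the 250 bases before each start were searched for TGATGNAA, the core of the C/EBP-ATF composite element, on both strands. It was found in 6 of 40 windows, or 15.0%, and in 1104 of 35114 windows of all genes, or 3.14%. The 6 genes were the regulator CEBPG, the effectors ASNS and CHAC1, and the synthetases AARS1, GARS1 and IARS1. A match is a description of letters and not a shown binding site. A relaxed glucocorticoid response element, ACA and TGTNCT set 3 bases apart, was searched on both strands of the same windows and found in none of the 40 and in 0.766% of all windows. The 6 stretches are printed because they show the element where it was found, each in gene direction with the element in capitals (as its reverse complement where it lies on the other strand).
ASNS, chr7:97872458-97872487, minus strand: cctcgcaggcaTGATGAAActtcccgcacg
CEBPG, chr19:33374060-33374089, plus strand: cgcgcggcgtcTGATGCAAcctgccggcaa
CHAC1, chr15:40953251-40953280, plus strand: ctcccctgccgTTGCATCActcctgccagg
AARS1, chr16:70289675-70289704, minus strand: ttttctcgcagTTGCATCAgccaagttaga
GARS1, chr7:30594834-30594863, plus strand: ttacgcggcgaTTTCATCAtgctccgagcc
IARS1, chr9:92293698-92293721, minus strand: ttttcagcgcgTTGCATCAcctcc
The element ended 61 bases before the start in ASNS, 35 in CEBPG, 202 in CHAC1, 180 in AARS1, 26 in GARS1 and 6 in IARS1. The CEBPG and GARS1 matches belong to the downstream of 2 listed starts. The ASNS match belongs to the upstream of 2, and the window of its other start held none. Among measured genes the median log2 fold change at 10 h against 0 h was −0.13 for the 6 with the element and −0.09 for the 20 that had a window without it.

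The full 250 bases are given for the synthesis gene in which the element is a textbook case, ASNS, and for MTHFD2, the gene with the largest difference at 10 h, whose window held no match to either pattern.
ASNS, chr7:97872409-97872658, minus strand: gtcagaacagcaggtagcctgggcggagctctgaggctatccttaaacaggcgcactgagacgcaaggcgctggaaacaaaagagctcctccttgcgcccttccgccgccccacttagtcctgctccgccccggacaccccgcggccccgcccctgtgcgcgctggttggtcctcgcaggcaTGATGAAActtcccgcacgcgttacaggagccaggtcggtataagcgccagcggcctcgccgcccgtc
MTHFD2, chr2:74198365-74198614, plus strand: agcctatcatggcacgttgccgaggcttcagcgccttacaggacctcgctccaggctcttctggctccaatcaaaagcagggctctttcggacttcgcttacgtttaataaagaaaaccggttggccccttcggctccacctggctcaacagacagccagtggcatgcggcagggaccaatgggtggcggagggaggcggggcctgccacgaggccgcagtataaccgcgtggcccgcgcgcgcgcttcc

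Among the 6 regulators, ATF4, the central transcription factor of the response, showed no difference beyond its spread. It read 10.93, 10.79 and 11.29 at 0 h, 10.86, 10.90 and 11.41 at 2 h, and 10.78 and 11.05 at 10 h. All 3 times overlapped, and 1 array at 0 h and 1 at 2 h stood above the rest. The log2 fold change was −0.08 at 10 h against 0 h, with a 95% interval of −0.56 to 0.39, and 0.05 at 2 h, with an interval of −0.37 to 0.47 (limma, adjusted p = 1.00 for both).

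DDIT3 encodes CHOP, a pro-apoptotic transcription factor downstream of ATF4. Its values were 7.02, 6.80 and 7.01 at 0 h, 6.57, 6.90 and 6.24 at 2 h, and 6.64 and 6.82 at 10 h. The lowest came from 2 h replicate 3, and the arrays of all times overlapped. The estimate was −0.37 at 2 h (interval −0.77 to 0.03) and −0.21 at 10 h (interval −0.66 to 0.24), each at an adjusted p of 1.00 in limma.

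CEBPG, a C/EBP-family partner of ATF4, was the regulator whose 10 h arrays lay apart from the untreated ones. It read 7.85, 7.82 and 7.77 at 0 h, 7.65, 7.47 and 8.02 at 2 h, and 7.48 and 7.42 at 10 h. Both 10 h arrays lay below all 3 untreated arrays, while the 2 h arrays lay on both sides of the untreated range. The log2 fold change at 10 h against 0 h was −0.37 ± 0.20 (SE), with an interval of −0.79 to 0.06 (limma, adjusted p = 1.00). A second probe set, also above the negative controls, had −0.28.

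ATF5, a relative of ATF4 that is likewise controlled at translation, had a wide spread at 0 h. Its values were 7.36, 7.10 and 6.28 at 0 h, 7.22, 7.16 and 6.81 at 2 h, and 7.17 and 7.12 at 10 h. One untreated array, replicate 3, was well below the others, and the log2 fold change of 0.23 at 10 h became −0.09 at the lowest under the alternatives tried. Its 4 probe sets disagreed, from −0.16 to 0.23. CEBPB, a C/EBP factor of stress and inflammation, had −0.14 at 10 h, and NUPR1, a stress-induced nuclear protein, had 0.08 at a mean of 4.82, close to the negative controls.

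The serine and one-carbon enzymes held the largest difference of the whole group. MTHFD2 is a mitochondrial folate enzyme of one-carbon metabolism. It read 10.07, 9.90 and 9.92 at 0 h, 10.07, 9.95 and 10.29 at 2 h, and 9.37 and 9.41 at 10 h. The 10 h arrays lay clear below all 6 others and close to each other, while the 2 h arrays overlapped the untreated ones. The mean was 9.39 ± 0.03 (SD, n = 2) at 10 h, against 9.96 ± 0.09 (SD, n = 3) at 0 h. In limma the log2 fold change was −0.57 ± 0.19 (SE), with an interval of −0.98 to −0.17, or 0.671 times the untreated level, at an unadjusted p of 0.00788 and an adjusted p of 0.695. Against 2 h it was −0.71 ± 0.19 (SE; limma, adjusted p = 0.363).

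The MTHFD2 difference was similar on both probe sets and in both sets of arrays, and it was not called under any alternative. The other MTHFD2 probe set, which carries a cross-hybridization suffix, had −0.59 at 10 h against 0 h. Within the 3 arrays with the lowest medians the difference at 10 h against 0 h was −0.53, and within the other 5 it was −0.59. Over 20 alternatives the log2 fold change stayed between −0.65 and −0.52, and the smallest adjusted p was 0.0979. Among all genes, 0.546% had a lower log2 fold change at 10 h against 0 h.

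PSAT1, which makes phosphoserine on the route to serine, had a smaller difference in the same direction. It read 11.26, 10.87 and 11.36 at 0 h, 11.15, 10.96 and 11.39 at 2 h, and 10.67 and 10.86 at 10 h. Both 10 h arrays lay below all others, though 10 h replicate 2 and 0 h replicate 2 nearly met. The log2 fold change was −0.39 ± 0.21 (SE), with an interval of −0.84 to 0.05 (limma, adjusted p = 1.00), and the other probe set had −0.20.

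The other enzymes of the pathway did not share that pattern. PHGDH, the first enzyme of serine synthesis, read 8.84, 8.65 and 8.57 at 0 h, 8.84, 8.88 and 9.08 at 2 h, and 8.47 and 8.90 at 10 h. Its 2 h arrays lay just above the untreated ones, with a log2 fold change of 0.25 (interval −0.13 to 0.63), and its 10 h arrays lay on either side, with 0.00 (interval −0.43 to 0.42). SHMT2, which passes a carbon unit from serine to folate in mitochondria, read 10.66, 10.88 and 10.90 at 0 h, 10.57, 10.76 and 11.10 at 2 h, and 10.91 and 10.86 at 10 h. These overlapped at all times, with a log2 fold change of 0.07 at 10 h (interval −0.36 to 0.50). PSPH, the phosphatase that completes serine synthesis, had 0.15 at 10 h (interval −0.26 to 0.56).

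ALDH1L2, a mitochondrial folate dehydrogenase, was in the range of the negative controls. It read 3.36, 3.57 and 3.76 at 0 h, 3.94, 3.34 and 3.36 at 2 h, and 3.40 and 3.34 at 10 h. Nothing about its RNA can be read from such values. CTH, which makes cysteine, was also below the highest negative control, at a mean of 3.63, so 32 of the 34 genes lay above it. Of the 6 serine and one-carbon enzymes, 4 had negative and 2 positive estimates at 10 h against 0 h, where 55.4% of all genes were negative. The 4 include ALDH1L2, whose values cannot be read, and PHGDH at −0.004.

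**Figure D3:**
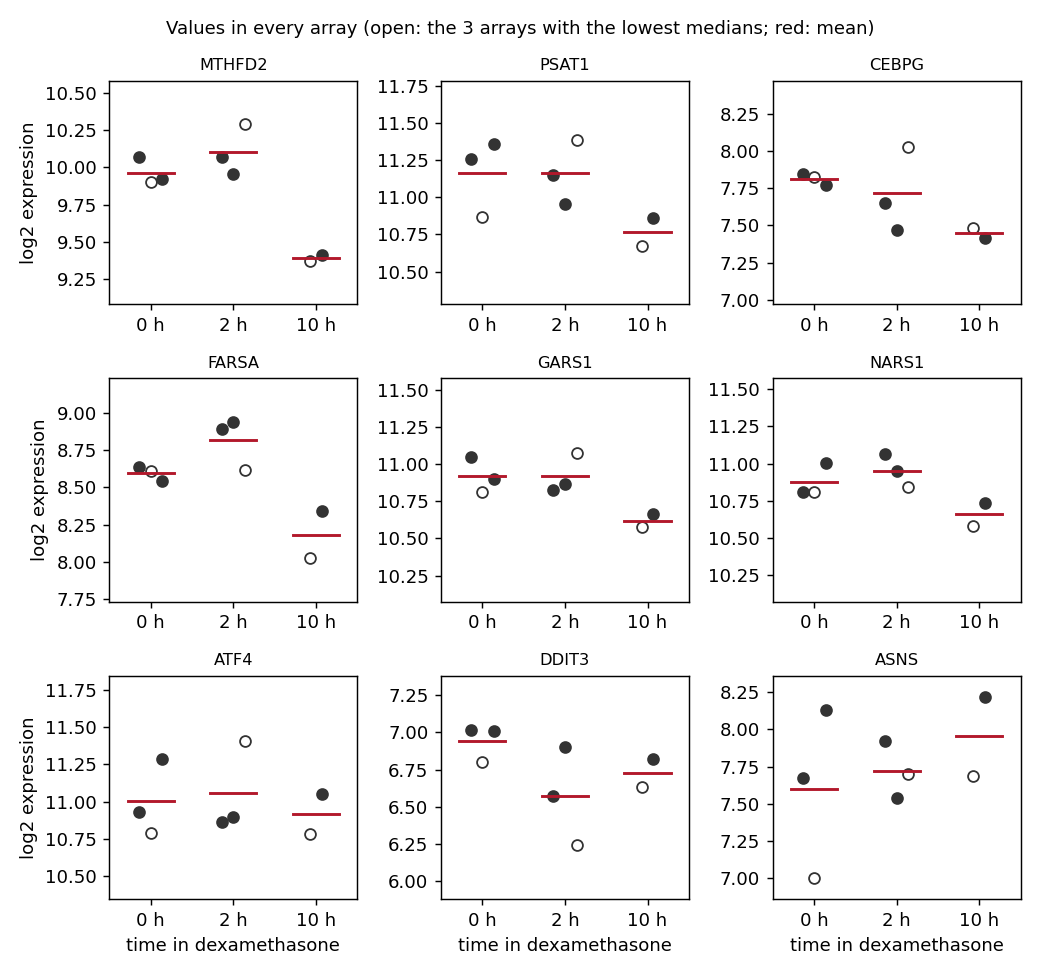
Log2 expression of 9 genes in every array at 0 h, 2 h and 10 h (x axis), each panel spanning 1.5 log2 units, with open circles for the 3 arrays with the lowest medians and red lines for the means. The 10 h arrays of MTHFD2 (9.37 and 9.41) lie clear of all others, while those of ATF4, DDIT3 and ASNS overlap the untreated arrays.

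Among the remaining effectors, ASNS, the asparagine synthetase and a standard readout of ATF4 activity, had the largest positive estimate of the group but also a wide spread. Its values were 7.67, 7.003 and 8.13 at 0 h, 7.92, 7.54 and 7.70 at 2 h, and 7.69 and 8.22 at 10 h. The untreated arrays alone spanned more than the 10 h and 2 h arrays together. The log2 fold change at 10 h against 0 h was 0.35 ± 0.27 (SE), with an interval of −0.23 to 0.93 (limma, adjusted p = 1.00). A second ASNS probe set, which lay in the range of the negative controls, had −0.02.

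CHAC1, which degrades glutathione and is strongly induced in amino acid starvation, stayed within a narrow band after hormone. It read 5.53, 5.24 and 5.75 at 0 h, 5.42, 5.48 and 5.44 at 2 h, and 5.45 and 5.51 at 10 h. All treated arrays lay inside the untreated range. The log2 fold change at 10 h was −0.03 (interval −0.44 to 0.39).

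PCK2, the mitochondrial enzyme that makes phosphoenolpyruvate, read 6.77, 7.08 and 7.03 at 0 h, 7.22, 7.25 and 7.40 at 2 h, and 6.95 and 7.21 at 10 h. PCK2 and PHGDH were the 2 of 34 genes whose 2 h arrays all lay above the untreated ones, where 2.94% of all genes had this arrangement; 0 of 34 had all 2 h arrays below, where 1.1% of all genes did. For PCK2 the log2 fold change at 2 h was 0.33 ± 0.17 (SE; limma, adjusted p = 1.00), and at 10 h it was 0.12. EIF4EBP1, an inhibitor of cap-dependent translation, read 9.07, 9.04 and 9.61 at 0 h, 9.15, 9.38 and 9.67 at 2 h, and 8.70 and 9.16 at 10 h. The 10 h arrays overlapped the untreated range, with a log2 fold change of −0.31 (interval −0.81 to 0.18).

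The 17 measured synthetases were all above the negative controls. Of these 13 of 17 had negative estimates at 10 h against 0 h, with a median of −0.11, and at 10 h against 2 h 15 of 17, with a median of −0.15; at 2 h against 0 h 4 of 17 were negative, with a median of 0.07. None was called in any of the 3. Within the 3 lowest-median arrays 10 of 17 had a negative difference at 10 h against 0 h, where 7859 of 19775 genes did. Within the other 5 arrays 11 of 17 did, where 10752 of 19775 genes did. In both sets 8 of 17 were negative, where 4412 of 19775 genes were. In 10 of the 17, the lowest of the 8 values was that of 10 h replicate 1.

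FARSA, the catalytic alpha subunit of the phenylalanine enzyme, had the largest difference of the synthetases by the brightest probe set of each gene. It read 8.64, 8.61 and 8.54 at 0 h, 8.90, 8.94 and 8.62 at 2 h, and 8.03 and 8.34 at 10 h. Both 10 h arrays lay below all others, and replicate 1 was lower than replicate 2. The log2 fold change at 10 h against 0 h was −0.42 ± 0.20 (SE; limma, unadjusted p = 0.0485, adjusted p = 1.00) and against 2 h −0.63 ± 0.20 (SE; adjusted p = 0.707). Its other probe set had −0.35 at 10 h against 0 h. FARSB, the partner subunit of the same enzyme, had −0.17, with an interval of −0.60 to 0.26. Its other probe sets disagreed. A dimmer one above the negative controls had −0.53 ± 0.32 (SE), and one below the highest negative control had 0.26.

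GARS1, NARS1 and IARS1, the glycine, asparagine and isoleucine enzymes, also had 10 h arrays below all untreated ones. GARS1 read 11.04, 10.81 and 10.90 at 0 h, 10.82, 10.87 and 11.08 at 2 h, and 10.57 and 10.66 at 10 h, a log2 fold change of −0.30 at 10 h against 0 h (interval −0.70 to 0.10). For NARS1 the values were 10.81, 10.81 and 11.01 at 0 h, 11.06, 10.95 and 10.84 at 2 h, and 10.58 and 10.74 at 10 h, a log2 fold change of −0.22 (interval −0.62 to 0.18). In the case of IARS1 they were 11.34, 11.25 and 11.30 at 0 h, 11.31, 11.17 and 11.36 at 2 h, and 10.89 and 11.22 at 10 h, with −0.24 (interval −0.64 to 0.16). The gap between the times was small for each, and for IARS1 10 h replicate 2 lay only just below the lowest untreated array.

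With CEBPG, PSAT1, MTHFD2 and FARSA, these made 7 of 34 genes whose 10 h arrays lay below all untreated arrays, where 6.51% of all genes had that arrangement, and 0 of 34 lay above, where 6.56% of all genes did. At 10 h against 2 h 8 of 34 lay below, where 9.29% of all genes did, and 0 of 34 above, where 5.43% did. PSAT1, MTHFD2, FARSA, GARS1 and NARS1 were the 5 below both earlier times. All 7 genes had a negative log2 fold change at 10 h against 0 h in each of the 20 alternatives, and none was called in any. Because the 7 were picked by this arrangement, leaving out or reweighting arrays could not turn their sign. The constant sign is therefore no separate support.

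**Figure D4:**
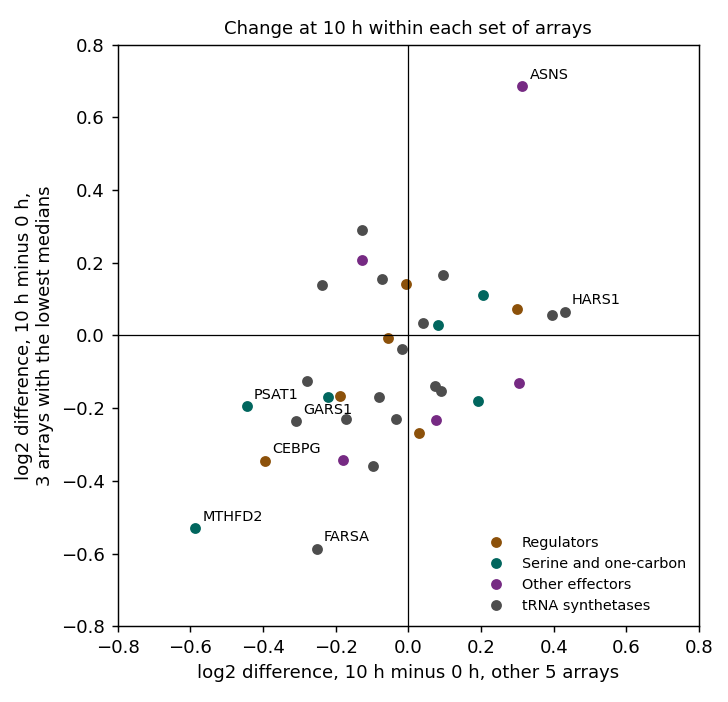
Difference in log2 expression at 10 h minus 0 h within the 3 arrays with the lowest medians (y axis, 1 array per time) against that within the other 5 arrays (x axis, 1 array at 10 h and 2 at 0 h), a point per gene, coloured by role. Of the 34 genes 15 lie in the lower left corner, where 4412 of all 19775 genes had negative differences in both sets. MTHFD2 lies furthest along both axes together, and ASNS stands alone at the upper right.

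Other synthetases showed either a wide spread or no separation. VARS1, the valine enzyme, read 8.77, 9.04 and 8.30 at 0 h, 8.74, 9.47 and 8.85 at 2 h, and 9.09 and 8.93 at 10 h, with a log2 fold change of 0.31 (interval −0.22 to 0.84) at 10 h. The lowest of these was 0 h replicate 3, and HARS1, the histidine enzyme, had the same low array and 0.29 at 10 h. The other VARS1 probe set, also above the negative controls, had 0.40 ± 0.20 (SE) at 10 h against 0 h. Over the 20 alternatives VARS1 stayed between 0.11 and 0.48, and HARS1 ran from −0.06 to 0.54. YARS1, the tyrosine enzyme, read 10.42, 10.00 and 10.76 at 0 h, 10.38, 10.44 and 10.57 at 2 h, and 9.88 and 10.31 at 10 h. Its 10 h arrays overlapped the untreated ones, and the log2 fold change was −0.30 (interval −0.78 to 0.18).

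AARS1, the alanine enzyme with a C/EBP-ATF element in its window, read 9.35, 9.17 and 9.70 at 0 h, 9.46, 9.56 and 9.54 at 2 h, and 9.20 and 9.57 at 10 h. The times overlapped, with −0.02 at 10 h (interval −0.46 to 0.42). WARS1, the tryptophan enzyme, which is known to be interferon-inducible, read 9.08, 8.81 and 8.88 at 0 h, 9.17, 9.18 and 8.94 at 2 h, and 8.66 and 9.07 at 10 h. It too overlapped, with −0.06 (interval −0.48 to 0.37). The 13 genes of the group not given array by array had log2 fold changes between −0.18 and 0.29 at 10 h against 0 h and between −0.12 and 0.32 at 2 h.

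Probe sets of 1 gene mostly pointed the same way at 10 h. The 34 genes had 65 probe sets, 55 of them with a mean above the highest negative control. None of the 65 was called at 10 h against 0 h when adjusted over all probe sets. The share of all probe sets called in that way is not given here, so this count cannot be weighed against it. Of 16 genes with more than 1 probe set above the highest negative control, 13 had the same sign in all of them. The exceptions were ATF5, SARS1 and SHMT2. SARS1, the serine enzyme, had −0.08 on the brightest probe set and 0.46 on the other, and SHMT2 ran from −0.20 to 0.22 over 3 probe sets. At 2 h against 0 h fewer of the 16 genes, 10, had the same sign in all such probe sets. There the exceptions were CARS1, EPRS1, FARSB, LARS1, SHMT2 and YARS1.

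Genes around the pathway gave 1 call. Of 16 other known targets of the integrated stress response, DDIT4 was called, and it is also a classical glucocorticoid-induced gene that restrains mTORC1. It read 10.22, 9.78 and 10.18 at 0 h, 11.04, 10.90 and 10.94 at 2 h, and 11.20 and 11.32 at 10 h. All treated arrays lay above all untreated ones. DDIT4 rose at 10 h against 0 h by a log2 fold change of 1.20 ± 0.20 (SE; limma, adjusted p = 0.0055), a call that was lost without either 10 h array (adjusted p = 0.0762 without replicate 1 and 0.184 without replicate 2) and without the 3 arrays with the lowest medians (adjusted p = 0.123). The median of the 16 was −0.05 at 10 h against 0 h, with 7 positive and 9 negative.

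Upstream, 0 of 17 genes for eIF2, its kinases, its exchange factor and its phosphatase subunits were called at 10 h, with a median of −0.01. EIF2AK2, the kinase PKR that senses double-stranded RNA, read 9.12, 8.26 and 8.73 at 0 h, 9.001, 8.62 and 8.998 at 2 h, and 8.23 and 8.06 at 10 h, a log2 fold change of −0.55 ± 0.24 (SE; limma, adjusted p = 1.00). Its 10 h arrays lay below the untreated ones, by a narrow margin for 0 h replicate 2. EIF2AK4, the kinase GCN2 that senses uncharged tRNA, had 0.36 (interval −0.08 to 0.80).

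The mitochondrial synthetases and folate enzymes gave no call either. Among 15 mitochondrial synthetases 8 were negative at 10 h against 0 h, with a median of −0.05; HARS2 had 0.27 and IARS2 −0.25. Of 11 other serine, glycine and folate enzymes 8 were negative, with a median of −0.14. MTHFD2L, a paralogue of MTHFD2, had 0.29 (interval −0.15 to 0.73), and MTHFD1, the cytosolic enzyme of the same steps, had −0.19. AIMP1, a scaffold of the multi-synthetase complex, had −0.22, and the other scaffolds were not analysed here.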

How the data were processed

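RNA levels were measured on 8 single-colour oligonucleotide arrays of 54675 probe sets. The authors deposited log2 expression values, made with RMA per the submitters' processing notes, and the sources used here do not say whether all arrays were normalized jointly. Names came from the platform's annotation table. Where several probe sets carried 1 symbol alone, the brightest on average across the 8 arrays, treated ones included, stood for that gene, which gave 19775 genes. The model was fitted with limma (version 3.58.1; R 4.3.3), with a mean per time, all 8 arrays in 1 fit and 5 residual degrees of freedom. A gene was called when its two-sided p, adjusted by the Benjamini-Hochberg method across every gene, was below 0.05, and the fit was tested on simulated data. Levels are compared between probe sets only to choose among those of a gene, against the negative controls, and among the cell type markers.

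Every gene of the group is covered by counts. Values in each array are given for genes called, genes whose 10 h or 2 h arrays did not overlap the 0 h arrays, the 3 largest changes at 10 h per role, and a fixed panel (ATF4, DDIT3, ASNS, CHAC1, PSAT1, PHGDH, SHMT2, MTHFD2, AARS1, GARS1 and WARS1). From the surrounding lists, called genes or else the 2 with the smallest p at 10 h were named; other marker genes and TSC22D3 were named after their values were seen. The genes, lists and alternatives were chosen with earlier results of these data known. Promoter windows came from RefSeq, assembly GRCh38.p14. The 20 alternatives covered the probe set per gene, scaling, a filter on dim genes, the variance model, array weights, blocks and the arrays used.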

Additional observations from a re-analysis of the deposited data

How the results depend on the processing

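No gene of the group was called in any comparison under any of the 20 alternatives, and the smallest adjusted p (limma) among the 34 was 0.0850, for MTHFD2 at 10 h against 2 h. Leaving out each array in turn moved the median log2 fold change of the group between −0.044 and 0.12 at 2 h against 0 h (0.05 with all arrays), between −0.26 and 0.027 at 10 h against 0 h (−0.09) and between −0.28 and 0.015 at 10 h against 2 h (−0.14); the ends at 10 h came from leaving out either 10 h array. Of 678 gene values per comparison, 65 had the other sign at 10 h against 0 h, 81 at 2 h and 69 at 10 h against 2 h, none of them called. The alternatives left 14 of 34 genes with a constant sign at 10 h against 0 h. The count of all genes called moved more. At 2 h it was 4, and 1 with averaged probe sets, 2 with either other choice of probe set, 7 without 2 h replicate 3, 8 with a replicate block, 8 with a block that set the 3 low-median arrays apart, 11 with trended robust variances and 26 with array weights. At 10 h against 0 h it was 70, and 108, 127 and 110 with trended robust variances, array weights and the block for the 3 arrays, 30 without those 3, and 37 and 35 without 10 h replicate 1 and 2. At 10 h against 2 h it was 33, and 57, 62, 52, 12, 14 and 12 under the same settings. The cause was not tested. With array weights 18 of 34 genes were negative at 2 h, as without the 3 arrays with the lowest medians.

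Deviations of same-numbered arrays had correlations of 0.26, −0.14 and −0.06 between 2 h and 0 h. Differently numbered arrays there ran from −0.20 to 0.24. Between 10 h and 0 h same-numbered arrays had −0.14 and −0.27. With 2 arrays at 10 h the deviations mirror each other, so these fix the values of 0.14 and 0.27 with the other 10 h array. Such values cannot settle whether samples were paired, and the main fit did not pair them. With a replicate block the medians of the group were 0.05 at 2 h against 0 h, −0.03 at 10 h against 0 h and −0.16 at 10 h against 2 h, and no gene of the group was called. At 10 h, 2 arrays limit what could be called, and a standard error of 0.19 to 0.29 applied to the 34 genes.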
